A study of Mus musculus with 8 samples.

Results

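Eph receptors are cell-surface tyrosine kinases that are switched on by ephrins on neighbouring cells. The A class ephrins are held in the membrane by a lipid anchor and mainly bind EphA receptors, whereas B class ephrins such as EphrinB2 span the membrane and mainly bind EphB receptors, with EphA4 known as a receptor for both classes. Contact between a ligand and its receptor can signal into both cells, through Src kinases and adaptors, and it is best known for steering cell repulsion, adhesion and sorting in developing nerve, vessel and bone. The values described here cover 8 genes of the A class: the ligand genes Efna1, Efna2, Efna4 and Efna5 and the receptor genes Epha2, Epha3, Epha4 and Epha7. They were taken by gene symbol from a table of 54532 mouse genes, and all 8 are among the 12994 genes that reached 1 FPKM (a level scaled for exon length and for the counted reads of the library) in at least 2 libraries and were tested.

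The study sequenced RNA of mouse cardiac fibroblasts, which form and remodel the matrix of the heart, at day 7, in 8 libraries. The 4 groups of 2 libraries each were EphrinB2-overexpressing cells in osteogenic differentiation medium, vector cells in osteogenic differentiation medium, EphrinB2-overexpressing cells in complete medium, and vector cells in complete medium. The sources used here do not give the promoter that drives EphrinB2, the make-up of the media, or the strain and age of the mice. The labels leave unsaid whether partner libraries are separate cultures. Each p-value therefore reflects library-to-library spread alone, and that spread may be technical.

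Efnb2, which encodes EphrinB2, was at 5.02 and 18.3 FPKM in EphrinB2 cells in osteogenic medium, against 1.39 and 1.27 FPKM in vector cells. In complete medium it was at 31.3 and 32.9 FPKM in EphrinB2 cells, against 6.30 and 5.56 FPKM in vector cells. Its mean in osteogenic medium was 36.3% of that in complete medium in EphrinB2 cells and 22.4% in vector cells. Neither of these differences between media was called within a kind of cell. Within each medium every library followed its label, although the EphrinB2 osteogenic libraries differed widely, and the gene missed the threshold over all genes in limma (adjusted p = 0.567 in osteogenic and 1 in complete medium). Across media this did not hold, since EphrinB2 osteogenic replicate 1, at 5.02 FPKM, lay below both vector complete libraries. The estimated depth was 16493859 to 20550819 counted reads per library. EphrinB2 osteogenic replicate 1 and EphrinB2 complete replicate 2 lay farthest from the other libraries, and the results that rest on them are given with and without them. Fibroblast marker genes summed to 2355 to 5585 FPKM in the 8 libraries, with Col1a1, Pdgfra and Tcf21 present in each. The macrophage list of 12 genes summed to 3964 to 8018 FPKM in EphrinB2 osteogenic, 4464 to 4681 in vector osteogenic, 828.5 to 1732 in EphrinB2 complete and 1812 to 2068 FPKM in vector complete libraries.

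In osteogenic medium the ligand gene and the receptor gene with the highest levels, Efna5 and Epha2, were lower than in complete medium, and so were the low receptor genes Epha3 and Epha7. Averaged over both kinds of cells, Efna5, Epha2, Epha3 and Epha7 fell, and no member rose. These are 4 of 8 members, where 9.44% of all genes tested were called lower and 10.3% higher. Epha3 and Epha7 reached 1 FPKM in complete medium libraries only, so the filter admitted them through the medium in which they were higher. The median log2 difference was -0.49 over the members and 0.01 over all genes tested. EphrinB2 overexpression gave no called change in any member in either medium. Of all genes tested, 0% were called in osteogenic and 0.0077% in complete medium, so this does not set the members apart.

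The promoters of Efna5, Epha3 and Epha7 are shown because these 3 members had the largest falls averaged over both kinds of cells. Each window runs from 250 bases before to 50 bases after the transcription start in RefSeq (GRCm38.p6). Capitals mark matches, on either strand, to the GC box with the letters GGGCGG, to the CCAAT box, or to the TEAD factor motif GGAATG. The motifs searched do not overlap one another in these windows. The Efna5 window is chr17:62881268-62881567 on the minus strand, the Epha3 window is chr16:63864126-63864425 on the minus strand, and the Epha7 window is chr4:28812881-28813180 on the plus strand.
Efna5: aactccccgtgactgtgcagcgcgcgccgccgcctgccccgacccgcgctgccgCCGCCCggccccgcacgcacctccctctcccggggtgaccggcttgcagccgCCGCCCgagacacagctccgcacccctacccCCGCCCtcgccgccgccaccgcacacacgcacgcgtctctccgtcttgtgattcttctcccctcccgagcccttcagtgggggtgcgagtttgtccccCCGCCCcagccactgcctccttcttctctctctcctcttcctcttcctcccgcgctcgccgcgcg
Epha3: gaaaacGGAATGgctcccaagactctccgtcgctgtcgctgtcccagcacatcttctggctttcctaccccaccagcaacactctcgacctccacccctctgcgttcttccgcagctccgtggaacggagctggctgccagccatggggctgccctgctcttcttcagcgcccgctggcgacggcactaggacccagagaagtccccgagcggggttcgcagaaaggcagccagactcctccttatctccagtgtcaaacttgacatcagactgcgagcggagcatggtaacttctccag
Epha7: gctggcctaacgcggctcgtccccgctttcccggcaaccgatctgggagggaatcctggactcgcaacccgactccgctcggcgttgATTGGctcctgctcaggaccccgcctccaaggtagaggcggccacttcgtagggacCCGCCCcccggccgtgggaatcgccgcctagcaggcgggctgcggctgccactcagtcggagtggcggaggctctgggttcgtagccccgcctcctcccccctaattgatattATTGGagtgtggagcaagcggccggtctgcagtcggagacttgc

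The Efna5 window held 4 GC boxes, the Epha7 window held 1 GC box and 2 CCAAT boxes, and the Epha3 window held 1 TEAD match and neither box. GC boxes were found in 35.9%, CCAAT boxes in 37.4% and the TEAD motif in 14.6% of 32544 promoter windows of the same length. None of the 3 windows held TATAAA, the core letters of a TATA element (in 13.6% of promoters), or TGTTCT, part of the glucocorticoid receptor motif (in 18.9%). No motif searched was found in all 3 windows. They held 38, 18 and 28 CpG pairs for Efna5, Epha3 and Epha7, and 95%, 70.1% and 85.7% of promoters held fewer.

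Efna5 encodes ephrin-A5, a ligand that guides axons in the mouse visual system. It lies on chromosome 17 (GRCm38, chr17:62604184-62881317, minus strand). It was at 3.84 and 5.53 FPKM in EphrinB2 osteogenic libraries, 5.81 and 6.28 in vector osteogenic libraries, 11.4 and 17.6 in EphrinB2 complete libraries, and 11.2 and 11.2 FPKM in vector complete libraries. All 4 osteogenic libraries lay below all 4 complete ones. The share of all genes with this pattern was not counted, while 23.6% in EphrinB2 cells and 38.8% in vector cells were lower without overlap. In EphrinB2 cells Efna5 averaged 4.68 ± 1.20 FPKM in osteogenic and 14.5 ± 4.38 FPKM in complete medium (SD, n = 2 each), and it fell by 1.44 on the log2(FPKM + 1) scale (SE 0.23, limma with Benjamini-Hochberg adjusted p = 0.0121). In vector cells it averaged 6.04 ± 0.334 FPKM in osteogenic and 11.2 ± 0.0357 FPKM in complete medium. That difference was -0.79 (SE 0.23) and missed the threshold when all groups shared 1 estimate of the spread (limma, adjusted p = 0.107). Averaged over both kinds of cells the fall was 1.11 (SE 0.17, limma, adjusted p = 0.00482), and this call was kept in each alternative run.

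The means of the other ligand genes were below that of Efna5 in each group, and none of them passed the threshold in the comparisons of media. Efna4 did under some alternatives given with it, and Efna1 did in a fit that left 1 library in its group. Efna1 encodes ephrin-A1, the ligand best known for binding EphA2, and lies on chromosome 3 (chr3:89271733-89281142, minus strand). It was at 2.61 and 1.96 FPKM in EphrinB2 osteogenic libraries, 1.33 and 1.41 in vector osteogenic, 1.30 and 1.06 in EphrinB2 complete, and 1.25 and 1.12 FPKM in vector complete libraries. It was thus the member whose highest values were in EphrinB2 cells in osteogenic medium, where both libraries exceeded the other 6. How many of all genes share this pattern was not counted. The difference between media in EphrinB2 cells was 0.58 (SE 0.16, limma, adjusted p = 0.0642), and the difference between EphrinB2 and vector cells in osteogenic medium was 0.46 (SE 0.16, limma, adjusted p = 0.567). Neither passed. Without EphrinB2 osteogenic replicate 2 they were 0.73 and 0.61, and without replicate 1 they were 0.44 and 0.32. Either fit leaves 1 library in that group, which is assumed to vary like the other groups. The library left in the fit with the larger differences is one of those that stood apart.

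Efna4 encodes ephrin-A4 and lies 52247 bases from Efna1 (chr3:89333390-89338028, minus strand), with Efna3 between them. Its level was 2.59 and 0.941 FPKM in EphrinB2 osteogenic libraries, 1.07 and 1.91 in vector osteogenic, 2.66 and 1.71 in EphrinB2 complete, and 3.34 and 3.09 FPKM in vector complete libraries. On the log2(FPKM + 1) scale its replicates differed more than those of any other member in both osteogenic groups. In the EphrinB2 osteogenic libraries the values rest on 85 and 29 estimated reads, with 95% Poisson intervals of 2.07 to 3.20 and 0.630 to 1.35 FPKM for counting error alone. The intervals do not overlap. The difference between media was -0.25 (SE 0.33) in EphrinB2 cells and -0.78 (SE 0.33) in vector cells, and neither passed (limma, adjusted p = 0.601 and 0.255). Averaged over both kinds of cells the difference was -0.52 (limma, adjusted p = 0.172). Efna4 did fall in that average with a trend on gene length removed (-0.71, limma, adjusted p = 0.00915), where 12.9% of all genes were called lower. Without both libraries that stood apart the difference was -0.85, with 1 library left in each EphrinB2 group. Of its exon bases, 10.5% overlap an antisense gene that stayed between 0.0173 and 0.220 FPKM, and without a stated strand setting reads of the pair cannot be told apart.

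Efna2 encodes ephrin-A2, which in mouse has been linked to the formation of bone-resorbing osteoclasts (chr10:80179482-80190010, plus strand). It was at 0.959 and 1.10 FPKM in EphrinB2 osteogenic libraries, 0.776 and 0.824 in vector osteogenic, 1.12 and 1.11 in EphrinB2 complete, and 1.08 and 1.06 FPKM in vector complete libraries. Its levels were the steadiest among the ligands, and its difference between media was -0.06 (SE 0.14) in EphrinB2 cells and -0.20 in vector cells (limma, adjusted p = 0.775 and 0.554).

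**Figure D1:**
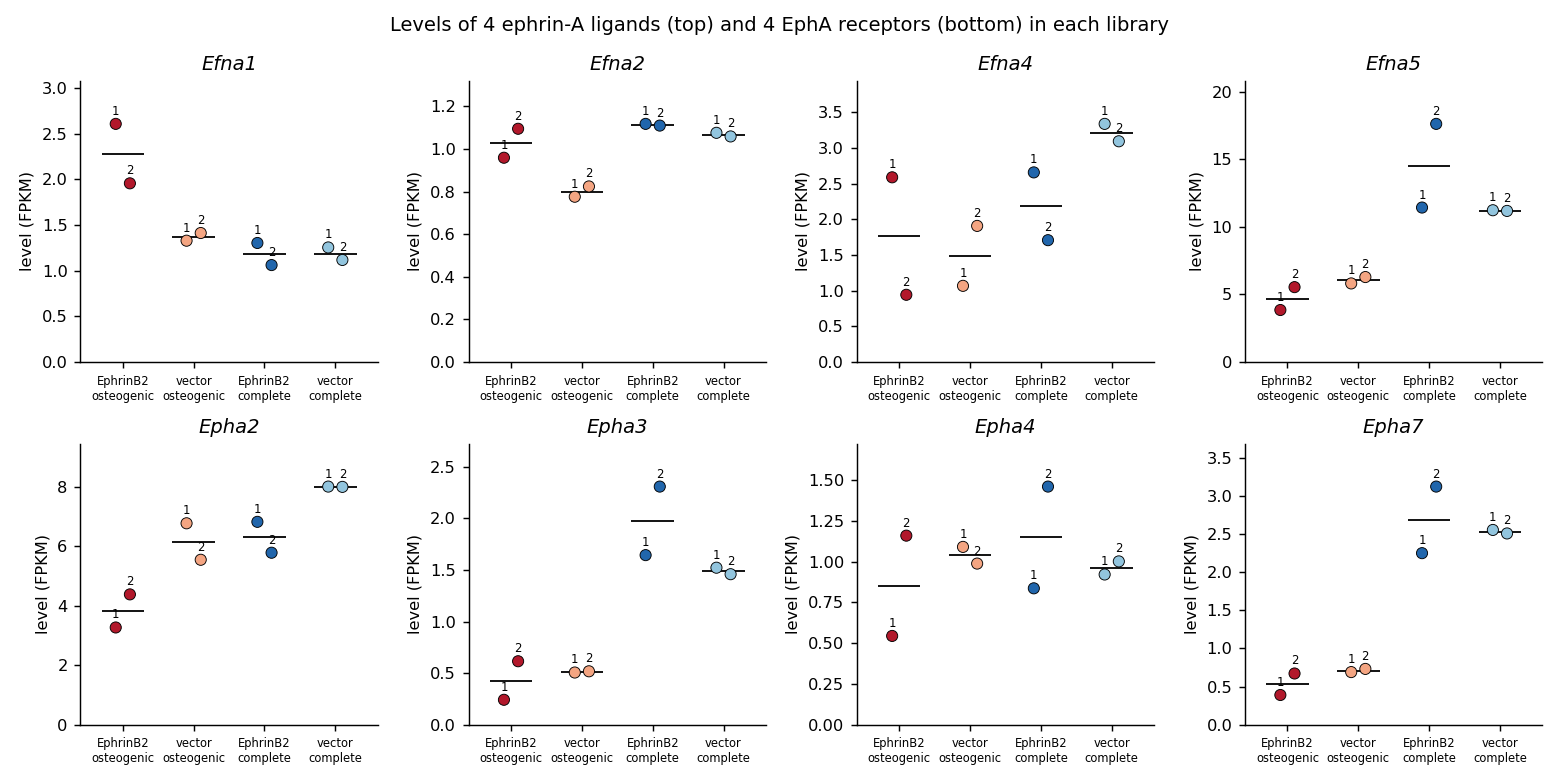
Level of each of the 8 genes (FPKM, vertical axis) in every library of the 4 groups; points are libraries, numbers give the replicate and bars give the group mean. Efna5, Epha3 and Epha7 are lower in all 4 osteogenic than in all 4 complete medium libraries, and Efna1 is highest in the EphrinB2 osteogenic libraries at 2.61 and 1.96 FPKM. Between media, 23.6% of all genes in EphrinB2 cells and 38.8% in vector cells were lower without overlap. The shares of all genes with these patterns over the 8 libraries were not counted.

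Among the receptors, Epha7 had the smallest p. It encodes EphA7, which is made in several splice forms, some without a kinase domain (chr4:28813131-28967499, plus strand). It was at 0.389 and 0.672 FPKM in EphrinB2 osteogenic libraries, 0.690 and 0.732 in vector osteogenic, 2.25 and 3.13 in EphrinB2 complete, and 2.56 and 2.51 FPKM in vector complete libraries. The mean in osteogenic medium was 19.7% of the mean in complete medium in EphrinB2 cells and 28% in vector cells. Epha7 fell by 1.27 in EphrinB2 cells (SE 0.18, limma, adjusted p = 0.00692) and by 1.05 in vector cells (SE 0.18, adjusted p = 0.0167). It was the only member called in both kinds of cells.

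Epha3 encodes EphA3, which in mouse is needed for the endocardial cushions of the heart (chr16:63543534-63864175, minus strand). It was at 0.241 and 0.615 FPKM in EphrinB2 osteogenic libraries, 0.505 and 0.517 in vector osteogenic, 1.64 and 2.31 in EphrinB2 complete, and 1.52 and 1.46 FPKM in vector complete libraries. The media did not overlap in either kind of cell, where 23.6% of all genes in EphrinB2 cells and 38.8% in vector cells were lower without overlap. Epha3 fell by 1.06 in EphrinB2 cells (SE 0.19, limma, adjusted p = 0.0175), and its difference in vector cells was -0.72 (SE 0.19, limma, adjusted p = 0.0809). Averaged over both kinds of cells, Epha3 fell by 0.89 (limma, adjusted p = 0.00549) and Epha7 by 1.16 (adjusted p = 0.0013), and these calls were kept in each alternative run. Epha3 and Epha7 reached 1 FPKM in complete medium libraries only, so they passed the filter through the group in which they were higher.

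Epha2 encodes EphA2, an epithelial and vascular receptor that also acts without a ligand, and was the receptor with the highest mean in each group (chr4:141301240-141329384, plus strand). It was at 3.27 and 4.38 FPKM in EphrinB2 osteogenic libraries, 6.78 and 5.55 in vector osteogenic, 6.83 and 5.79 in EphrinB2 complete, and 8.012 and 8.002 FPKM in vector complete libraries. The group means were 3.83 ± 0.788, 6.16 ± 0.868, 6.31 ± 0.735 and 8.01 ± 0.00694 FPKM in that order of groups (SD, n = 2 each). Averaged over both kinds of cells it fell by 0.47 (SE 0.12, limma, adjusted p = 0.0394), a call that was lost in 7 of 8 fits that left out 1 library, with adjusted p between 0.0131 and 0.181 over the 8. It was lost as well without the filter on low values (limma, adjusted p = 0.0739) and with library weights (adjusted p = 0.118). In EphrinB2 cells alone the difference between media was -0.60 (limma, adjusted p = 0.0721) and in vector cells alone -0.34 (adjusted p = 0.376).

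Epha4 encodes EphA4, the A class receptor that also binds B class ephrins (chr1:77367185-77515088, minus strand). It was at 0.544 and 1.16 FPKM in EphrinB2 osteogenic libraries, 1.09 and 0.988 in vector osteogenic, 0.836 and 1.46 in EphrinB2 complete, and 0.921 and 1.00 FPKM in vector complete libraries. The media overlapped in both kinds of cells. Its difference was -0.22 in EphrinB2 cells and 0.06 in vector cells (limma, adjusted p = 0.51 and 0.953), and the sign in EphrinB2 cells turned to 0.03 when a trend on gene length was removed.

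The comparison of media was next counted within each kind of cell. In these counts too, Epha3 and Epha7 had passed the filter only through complete medium, where they were higher. In EphrinB2 cells 3 of 8 members fell (Efna5, Epha3 and Epha7) and none rose in limma, where 5.44% of genes tested were called lower and 6.36% higher. Both osteogenic libraries lay below both complete ones for 5 members and above them for Efna1, against 23.6% and 24.3% of all genes. In vector cells 1 of 8 members fell (Epha7) and none rose, where 3.11% of genes were called lower and 4.41% higher. There 6 members lay below and Efna1 above without overlap, against 38.8% and 34.4% of all genes. The median member difference was -0.43 in EphrinB2 cells and -0.53 in vector cells, against 0.03 and -0.02 over all genes tested.

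The calls in each kind of cell depended on which libraries set the spread. With the vector libraries alone 5 members fell (Efna4, Efna5, Epha2, Epha3 and Epha7), where 22.1% of all genes were called lower. With the EphrinB2 libraries alone none did, where 0.323% of genes were called lower (limma, adjusted p = 0.123 for Efna5, 0.154 for Epha3 and 0.104 for Epha7). Without both libraries that stood apart, Efna5 fell by 0.93, Epha3 by 0.71 and Epha7 by 0.96 in EphrinB2 cells (limma, adjusted p = 0.00327, 0.027 and 0.00836 for Epha7), where 15.7% of genes were called lower. Both EphrinB2 groups then hold a lone library whose spread is taken from the vector libraries. With 1 library left out at a time, Epha7 kept its call in EphrinB2 cells in 8 of 8 fits, Efna5 lost it without EphrinB2 complete replicate 2 (limma, adjusted p = 0.051), and Epha3 lost it in 5 of 8 fits (adjusted p up to 0.096). Without the filter on low values Epha3 also missed the threshold there (limma, adjusted p = 0.0523). The call of Epha7 in vector cells was lost when any 1 vector library was left out (limma, adjusted p = 0.137 to 0.144) and without the filter on low values (adjusted p = 0.0555).

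**Figure D2:**
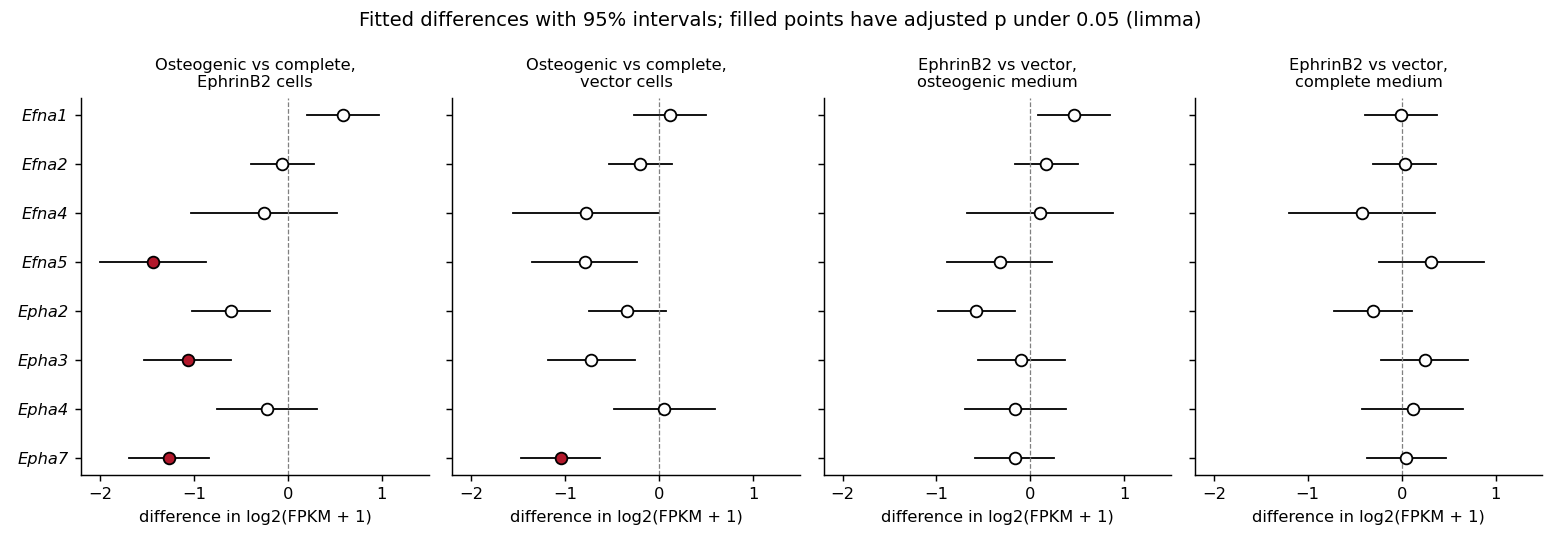
Log2 differences of the 8 genes on the log2(FPKM + 1) scale, with 95% intervals from limma, for the comparisons of media and of EphrinB2 with vector cells; filled points passed the adjusted threshold of 0.05. Filled points are found only in the comparisons of media, for Efna5, Epha3 and Epha7 in EphrinB2 cells and for Epha7 in vector cells. Between EphrinB2 and vector cells 0% of all genes tested passed in osteogenic and 0.0077% in complete medium.

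EphrinB2 and vector cells were compared within each medium. In osteogenic medium 0 of 8 members passed in limma, as did 0% of the 12994 genes, while 3.39% had an unadjusted p under 0.05. Epha2 and Efna1 were the members under that unadjusted level, with differences of -0.57 (SE 0.17, unadjusted p = 0.0139 in limma) and 0.46 (unadjusted p = 0.0245 in limma). Epha2 averaged 3.83 FPKM in EphrinB2 and 6.16 FPKM in vector cells there. Both EphrinB2 libraries lay below both vector libraries for Efna5, Epha2 and Epha7 and above them for Efna1 and Efna2, against 22.3% and 25.6% of all genes. Without EphrinB2 osteogenic replicate 2, Epha2 fell in this comparison (limma, adjusted p = 0.0379), where 9.03% of genes were called lower and 12.1% higher (2742 genes in all). Without replicate 1 its adjusted p was 1 in limma, and 1 gene was called. In both fits the lone EphrinB2 library is assumed to vary like the other groups.

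In complete medium 0 of 8 members passed, where 0.0077% of genes did (1 gene, lower in EphrinB2 cells) and 1.29% had an unadjusted p under 0.05 in limma. The groups did not overlap for Efna4 and Epha2, lower in EphrinB2 cells, and for Efna2, Efna5 and Epha3, higher there, against 11.5% and 14.3% of all genes. The member differences ran from -0.42 for Efna4 to 0.32 for Efna5, each with an adjusted p of 1 in limma. Averaged over both media the differences of EphrinB2 and vector cells ran from -0.44 for Epha2 (SE 0.12, limma, adjusted p = 0.889) to 0.23 for Efna1, and 0% of genes passed in limma while 2.55% had an unadjusted p under 0.05. The interaction of EphrinB2 and medium passed for no member and for 0% of genes, with 1.65% at an unadjusted p under 0.05, and the member values ran from -0.64 for Efna5 to 0.53 for Efna4 (limma, adjusted p = 0.746 for Efna5). These intervals are wide: a difference that missed the threshold is not shown to be absent.

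The make-up of the A class also shifted with medium. FPKM is a level per exon length, which is meant to let levels of different genes be set side by side. In the EphrinB2 groups, however, replicate differences varied with exon length, with a rank correlation of 0.51 in osteogenic and 0.44 in complete medium. Shares of short and long genes in those libraries may carry this length trend. Efna5 made up 38.2% to 57.8% of the summed FPKM of the ligand genes in EphrinB2 osteogenic libraries, 60.0% to 64.4% in vector osteogenic, 67.6% to 81.4% in EphrinB2 complete and 65.4% to 66.6% in vector complete libraries. The share of Efna1 was 20.4% to 25.9% in EphrinB2 osteogenic and 13.5% to 14.7% in vector osteogenic libraries, against 4.90% to 7.70% in EphrinB2 complete and 6.66% to 7.31% in vector complete libraries. The shares of 38.2% for Efna5 and 25.9% for Efna1 came from EphrinB2 osteogenic replicate 1, which stood apart. Those of 81.4% and 4.90% came from EphrinB2 complete replicate 2, which also stood apart. Efna5 nonetheless had the highest mean of the ligand genes in each of the 4 groups.

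Among the receptor genes the shares of Epha2 and Epha7 differed in opposite directions. Epha7 made up 8.31% to 9.07% of the summed receptor FPKM in EphrinB2 osteogenic and 7.19% to 8.65% in vector osteogenic libraries, against 19.3% to 24.0% in EphrinB2 complete and 19.2% to 19.4% in vector complete libraries. Epha2 made up 59.2% to 69.9% in EphrinB2 osteogenic and 65.6% to 70.6% in vector osteogenic libraries, against 44.3% to 58.6% in EphrinB2 complete and 60.8% to 61.2% in vector complete libraries. The Epha2 shares of 69.9% and 44.3% came from EphrinB2 osteogenic replicate 1 and EphrinB2 complete replicate 2, which stood apart. None of the shares of ligand or receptor genes was tested.

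**Figure D3:**
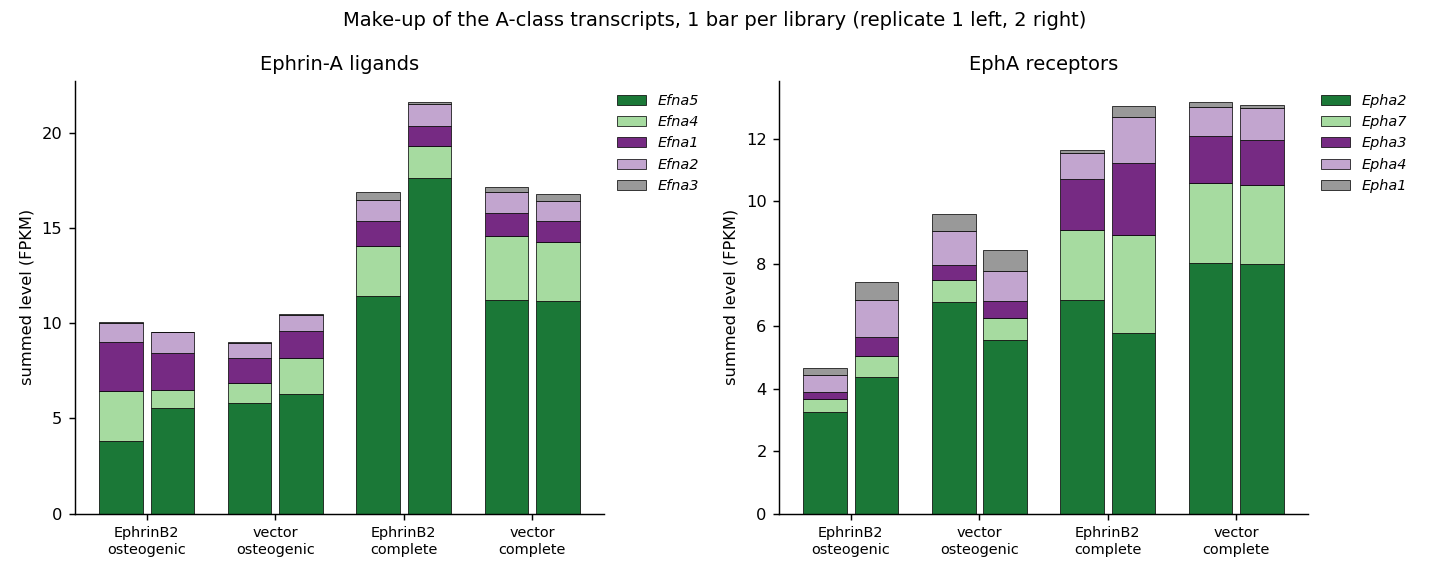
Summed FPKM of the ligand genes and of the receptor genes in each library, split by gene. Osteogenic libraries have shorter stacks than complete medium libraries for both, with Efna5 the tallest ligand segment and Epha2 the tallest receptor segment in each library.

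The other 6 A class genes were too low to test. Efna3, the neighbour of Efna1 and Efna4, had 2 or 3 estimated reads in each osteogenic library and 6 to 19 in each complete medium library. Epha1 had 19 to 51 estimated reads in osteogenic libraries of both kinds of cells and 6 to 24 in complete medium libraries, and 6.01% of its exon bases overlap the abundant gene Zyx on the opposite strand. Epha5 and Epha8 had 3 reads or fewer in any library, and Epha6 and Epha10 were listed at 0 in all 8.

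The B class and the machinery downstream of the receptors give the setting. Of 6 B class genes tested, Ephb2 and Ephb3, receptors of EphrinB2, fell with osteogenic medium both in EphrinB2 cells (log2 difference -1.73 and -1.60, limma, adjusted p = 0.00751 and 0.000893) and in vector cells (-1.28 and -1.47, limma, adjusted p = 0.0271 and 0.00125). Ephb4, the B class receptor gene with the highest mean in each group, was not called in either kind of cell. Its osteogenic mean was 75.1% of the complete medium mean in EphrinB2 cells and 89.6% in vector cells. The same test called members of 2 more lists. Of 4 genes of proteases that cut ephrins and matrix, Adam12 fell by 1.87 and Mmp14 by 1.17 in EphrinB2 cells, and by 1.23 and 0.95 in vector cells. Of 21 kinase, adaptor and phosphatase genes tested, Nck2, Grb10 and Ptk2 fell in EphrinB2 cells and Nck2 in vector cells. Between media, 5.44% of all genes tested were called lower in EphrinB2 cells and 3.11% in vector cells. In none of these lists did a gene rise in either kind of cell, and in none was a gene called between EphrinB2 and vector cells. In that last comparison 0% of all genes tested were called in osteogenic and 0.0077% in complete medium.

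For the 4 members called in any comparison, the genes nearest in profile were sought among 11224 tested protein-coding genes, by Euclidean distance between centred log2(FPKM + 1) values over the 8 libraries. Nearest to Epha7 were Irf2bpl (0.161), Astn2 (0.181) and the collagen gene Col1a2 (0.217). Nearest to Efna5 were Mrc2 (0.175), Tmem184b (0.211) and Srebf2 (0.278). The genes nearest to Epha3 were Itgb3, an integrin subunit (0.182), Plxdc2 (0.193) and Pygo1 (0.198), and those nearest to Epha2 were Ero1l (0.307), Pdgfb (0.310) and Sec61a1 (0.321). Among the members themselves Efna5 and Epha7 were closest (0.379) and Efna1 and Efna5 farthest apart (2.36).

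Markers of other cells moved with medium as well. Averaged over both kinds of cells in limma (adjusted p under the threshold for each gene said to rise or fall), 11 of 12 macrophage markers rose, among them Cd68 by 1.58, Csf1r by 1.26 and Adgre1 by 0.94. For this and the lists that follow, 10.3% of all genes tested were called higher and 9.44% lower in that comparison. Of 10 fibroblast markers 4 fell (Col1a1 by 2.04, Col3a1 by 1.77, Col1a2 by 1.21 and Pdgfrb by 0.86), and Dcn rose by 1.81. Of the neural and Schwann list, summing to 8.30 to 13.5 FPKM in EphrinB2 osteogenic and 10.1 to 10.8 in vector osteogenic libraries, against 70.0 to 80.0 in EphrinB2 complete and 65.6 to 73.1 FPKM in vector complete libraries, Tubb3 and Ncam1 fell, while the Schwann gene Sox10 stayed at or under 0.0528 FPKM. Among 8 cardiomyocyte markers Tnnt2 rose by 2.46, the only one tested, and the list summed to 8.67 to 15.4 FPKM in EphrinB2 osteogenic and 6.12 to 7.17 in vector osteogenic libraries, against 0.917 to 0.929 in EphrinB2 complete and 0.733 to 0.909 FPKM in vector complete libraries. The defining cardiomyocyte genes Myh6 and Actn2 were at or under 0.023 FPKM in every library. Of 3 epicardial and mesothelial markers tested, Msln rose by 2.22 and Upk3b fell by 0.73, and the list summed to 8.61 to 10.5 FPKM in EphrinB2 osteogenic, 7.49 to 10.2 in vector osteogenic, 7.996 to 8.03 in EphrinB2 complete and 6.61 to 8.48 FPKM in vector complete libraries. Of 4 endothelial markers tested, Cdh5 fell by 1.17, Pecam1 fell by 0.57 and Tek rose by 0.65, and the list of 9 summed to 9.29 to 13.5 FPKM over the 8 libraries. Of 3 mural markers tested, Mcam fell by 0.97 and Myh11 rose by 0.76, and the list of 7 summed to 19.1 to 60.7 FPKM in EphrinB2 osteogenic and 53.4 to 55.5 in vector osteogenic libraries, against 60.5 to 105.3 in EphrinB2 complete and 69.1 to 72.1 FPKM in vector complete libraries. The part of these cells in the falls of Efna5, Epha2, Epha3 and Epha7 was not tested, and in bulk RNA fewer cells of a type and less RNA per cell cannot be told apart.

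The replicate differences of the members varied with gene length in the EphrinB2 groups, though not evenly. In EphrinB2 osteogenic libraries replicate 2 minus replicate 1 was -0.89 for Efna4, with 1599 exon bases, -0.29 for Efna1, with 1830, and 0.10 for Efna2, with 2131. The longer members were at 0.43 for Efna5 (4032 exon bases), 0.33 for Epha2 (4674), 0.48 for Epha4 (8054), 0.38 for Epha3 (8692) and 0.27 for Epha7 (9884), in no order of length among them. In EphrinB2 complete libraries the differences were -0.43 for Efna4, -0.16 for Efna1, -0.0056 for Efna2, 0.58 for Efna5, -0.21 for Epha2, 0.42 for Epha4, 0.32 for Epha3 and 0.34 for Epha7, so Epha2 was below 0 there despite its length. Over all genes the rank correlation of this difference with exon length was 0.51 in EphrinB2 osteogenic, -0.018 in vector osteogenic, 0.44 in EphrinB2 complete and 0.037 in vector complete libraries, a description across genes that share the same libraries. With the length trend removed, Efna5, Epha3 and Epha7 kept their calls in EphrinB2 cells.

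**Figure D4:**
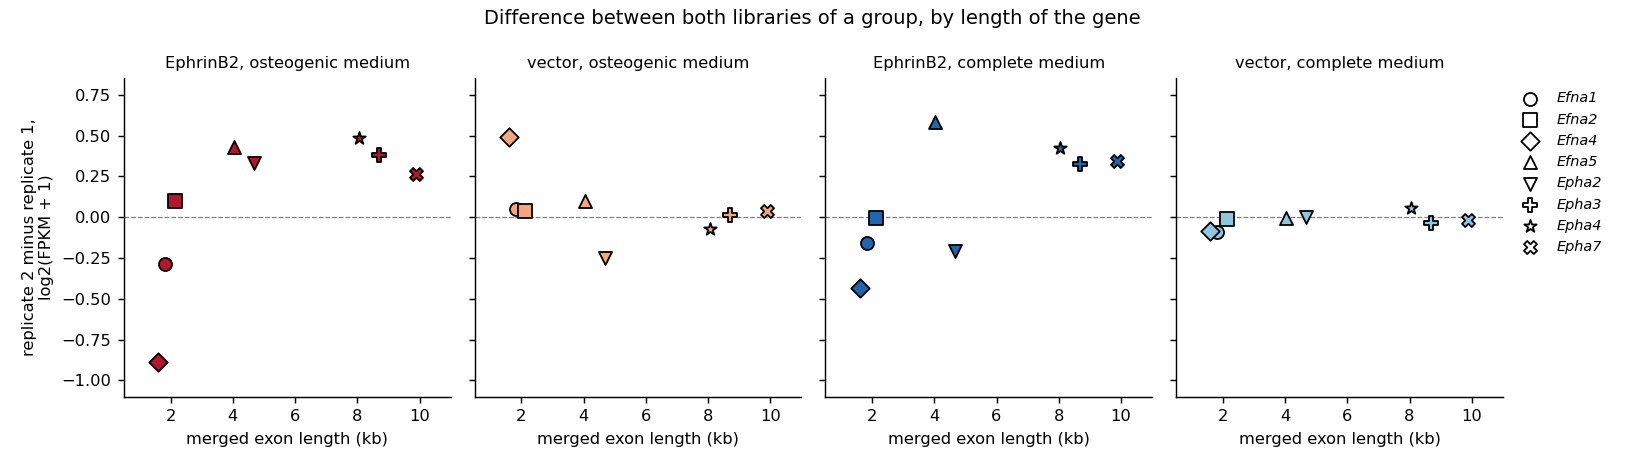
Replicate 2 minus replicate 1 of each gene on the log2(FPKM + 1) scale (vertical axis) against its merged exon length in kilobases, 1 panel per group. In both EphrinB2 panels the short genes Efna4 and Efna1 lie below 0 and Efna5, Epha3, Epha4 and Epha7 above it, while in vector complete libraries all lie between -0.09 and 0.06.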

How the data were processed

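The deposited table gives FPKM per Ensembl gene and library, made by the authors. Per the submitters' processing notes, reads were handled with build mm10, HISAT2 2.0.5, DESeq2 1.16.1, featureCounts 1.5.0-p3 and CASAVA. The sources used here name no annotation release, strand setting or filter. Symbols and exon lengths came from GENCODE M21 (GRCm38, the assembly of mm10), which matched 54495 of 54532 identifiers. Promoters came from RefSeq.

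FPKM values are not counts, so log2(FPKM + 1) was fitted in limma 3.58.1 (R 4.3.3) with 1 mean per group, all 8 libraries and a mean-variance trend. Fold changes on this scale understate changes of low genes. Genes with at least 1 FPKM in at least 2 libraries were tested, and two-sided p-values were Benjamini-Hochberg adjusted over 12994 genes at a threshold of 0.05. The model has 4 residual and 2.72 prior degrees of freedom and assumes equal spread in the groups. It was tested on simulated data.

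Depth was estimated from FPKM steps: FPKM multiplied by exon length was whole, within 0.02 reads, for 98.1% to 98.3% of genes under 50 reads. Intervals and read numbers cover counting error only. No count model was run on these reads.

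The members, gene lists and alternatives were chosen with earlier results of these data known. The genes named are the 8 members, Efnb2, called genes of the listed families, up to 4 called signalling or shedding genes per list, the 3 nearest profiles of each called member, and cell type markers. Not every gene of these lists is reported here.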

Additional observations from a re-analysis of the deposited data

Results flagged for a closer look

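The mean of Efna5 was lower in EphrinB2 than in vector cells in osteogenic medium and higher in complete medium. In osteogenic medium both EphrinB2 libraries (3.84 and 5.53 FPKM) lay below both vector libraries (5.81 and 6.28 FPKM), and in complete medium both EphrinB2 libraries (11.4 and 17.6 FPKM) lay above both vector libraries (11.2 and 11.2 FPKM). Of all genes tested, 22.3% were lower without overlap in osteogenic medium and 14.3% higher in complete medium. The share of genes with both patterns was not counted. The difference of the log2 differences was -0.64 (SE 0.33) and missed the threshold in limma (adjusted p = 0.746). In complete medium EphrinB2 replicate 1 exceeded the vector libraries by little, and without EphrinB2 replicate 2 the log2 difference there was 0.03, against 0.32 with it.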

How the results depend on the processing

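No paired analysis was possible because the labels give no replicate number shared between groups, and the numbers used here only name libraries. The averaged medium falls of Efna5, Epha3 and Epha7 kept their calls in each of the 15 alternatives run. In vector cells the count of members that fell was 1, against 0 without a filter, 2 with quantile normalization, 3 with the length trend removed, and 5 with only the groups compared, without both libraries that stood apart, or with library weights. All genes called lower made up 3.11% in the fit reported, 0.988% without a filter, 3.73% with quantile normalization, 5.17% with the length trend removed and 22.1% in each of the last 3. In EphrinB2 cells it was 3, against 0 with only the groups compared and 0 with library weights, with 5.44%, 0.323% and 1.09% of all genes called lower. Leaving out 1 library gave 0 to 2 falls in vector cells, 1 to 4 falls and 0 to 1 rises in EphrinB2 cells, 0 to 1 of each between EphrinB2 and vector cells in osteogenic medium, and 3 to 4 falls and 0 to 1 rises in the averaged medium comparison. The cause was not tested.

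Genes called moved by more than 1.5 times. In vector cells 977 became 1555 with the length trend removed, 5273 with only the groups compared, 5274 without both libraries that stood apart, 5521 with library weights and 169 to 1749 with 1 library left out. In EphrinB2 cells 1533 became 153, 3858 without both libraries, 335 with library weights and 635 to 5686. The averaged medium count of 2568 became 6265 without both libraries and 1197 to 5205. Without a filter 13 genes were called between EphrinB2 and vector cells in complete medium (1 in the fit reported), 14 in osteogenic medium, 21 in the average and 22 in the interaction (0 in each fit reported), and leaving out 1 library gave up to 2742 in osteogenic medium and 398 in the average.

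Directions turned only for differences that were not called. With quantile normalization these were Efna1 between EphrinB2 and vector cells in complete medium (0.040) and Epha3 (0.16) and Epha7 (0.052) in osteogenic medium. With the length trend removed they were Epha4 between media in EphrinB2 cells (0.025) and averaged (0.051), Efna1 in complete medium (0.054), and Efna2 (-0.12), Efna4 (-0.26), Epha3 (0.12), Epha4 (0.032) and Epha7 (0.083) between EphrinB2 and vector cells in osteogenic medium. Without both libraries that stood apart they were Epha4 between media (0.23 in EphrinB2 cells, 0.15 averaged), Efna1 (0.076), Epha4 (-0.095) and Epha7 (-0.12) in complete medium, Efna4 (-0.34), Epha3 (0.096) and Epha4 (0.083) in osteogenic medium, and the interaction of Efna4 (-0.13). With 1 library left out the ranges that crossed 0 were -0.70 to 0.19 for Efna4 and -0.46 to 0.023 for Epha4 between media in EphrinB2 cells, -0.20 to 0.040 for Epha4 averaged, -0.084 to 0.076 for Efna1, -0.095 to 0.33 for Epha4 and -0.12 to 0.22 for Epha7 in complete medium, and -0.34 to 0.55 for Efna4, -0.28 to 0.096 for Epha3 and -0.40 to 0.083 for Epha4 in osteogenic medium.

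Depth limits the low genes: Epha3 had 43 to 103 and Efna4 29 to 85 estimated reads in EphrinB2 osteogenic libraries.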
